A study of Rattus norvegicus with 12 samples.

Results

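Of the 6889 autosomal promoters that were read with short probes in rat kidney, 367 had a low signal for methylated DNA relative to input DNA. These 367 promoters are described here. A promoter was a run of at least 3 array probes in which neighboring probes started no more than 1000 bp apart and which spanned at most 5000 bp. Short-probe promoters had a mean probe length under 48 bases. The level of a promoter was log2(Cy5/Cy3) of the scanner signals minus the median of the array, averaged over its probes and the 12 arrays, and the 367 promoters had a level of −0.3 or lower. They were drawn from 15221 autosomal promoters that met the first conditions, of 16055 promoters tested and 16174 probe clusters on the array. The level and the probe length chose the promoters, so both are given as descriptions and without a test, whereas the differences between diet groups did not enter the choice.

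Methylated DNA immunoprecipitation (MeDIP) pulls down DNA fragments with an antibody against 5-methylcytosine, and the array compares that DNA (Cy5) with the input DNA (Cy3). Promoters rich in CpG dinucleotides, the CpG islands, are mostly free of methylation in somatic tissues, and dense methylation of such a promoter usually goes with a silent gene. The recovered amount rises with the number of methylated CpGs in a fragment, so a low ratio can come from little methylation or from few CpGs, and the ratio alone does not tell these apart. Array designers shorten probes in GC-rich sequence to keep the melting temperature even, which makes probe length a rough stand-in for base composition. The GC content of the 367 promoters was not analysed here. The files give positions on build rn4 without gene names, so promoters are named by position.

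The samples were kidney DNA of male offspring aged 6 weeks, and each of the 4 groups had 3 arrays. The animals were SHRSP, the inbred stroke-prone substrain of spontaneously hypertensive rats. Dams were fed a control (CN, 20% casein) or a low-protein (LP, 9% casein) diet in pregnancy. After delivery all dams and pups had the CN diet until the male pups were separated from the dams. From then to 6 weeks of age, offspring of CN dams were fed CN (mCN-CN). Over the same time, offspring of LP dams were fed CN (mLP-CN), LP (mLP-LP), or a high-protein diet with 40% casein (mLP-HP). The DNA came from whole kidney, a mixture of cell types, and a change in a promoter cannot be told apart from a change in the share of a cell type. The labels do not say whether each array held the DNA of a single animal or of a pool, so the p-values measure the spread between these samples only. Replicates are called by the numbers of the labels, 1 to 3 for mCN-CN, 4 to 6 for mLP-CN, 7 to 9 for mLP-HP, and 10 to 12 for mLP-LP.

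The arrays were read in 5 scans over 3 days. Scan 1 held mCN-CN replicates 1 and 2, scan 2 held mCN-CN replicate 3 and the 3 mLP-CN arrays, scan 3 held mLP-HP replicate 7, scan 4 held mLP-HP replicates 8 and 9 with mLP-LP replicate 10, and scan 5 held mLP-LP replicates 11 and 12. No scan held both mLP-CN and a group on a changed postnatal diet, so in these comparisons the scan and the diet cannot be told apart. A fit that treats the scan as a random effect is given beside them.

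The 367 promoters held 3309 probes, with a median of 9 probes (range 3 to 21) over a median of 1653 bp (range 353 to 4506 bp). Their median level was −0.42 (quartiles −0.54 and −0.35), whereas the other 6522 short-probe promoters had a median level of 0.23. Most lay close to the limit. A level of −0.5 or lower was found in 120 promoters and one of −1 or lower in 9. Just inside the limit were chr15:107227567-107229181 with a level of −0.30 over 10 probes and chr9:82346085-82347713 with −0.301 over 9 probes. Just outside were chr7:121588157-121589816 with −0.30 over 10 probes and chr10:64865682-64867153 with −0.299 over 8 probes, so the limit separates promoters that differ by far less than the spread between arrays.

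Low levels were uncommon among short-probe promoters and frequent among longer ones. Of promoters with a mean probe length from 45 to under 46 bases, 1.45% (32 of 2212) had a level of −0.3 or lower, followed by 5.02% (119 of 2371) from 46 bases and 9.37% (216 of 2306) from 47 bases. The share went on to 17% at 48 bases and 98.3% at 58 bases. Across the 15221 autosomal promoters the level and the mean probe length had a Pearson correlation of −0.726, and within the 367 promoters it was −0.0634. The choice limited both the level and the probe length of the 367 promoters, so these correlations cannot be compared. The 367 promoters had slightly longer probes than the other short-probe promoters, with a median of their mean lengths of 47.2 against 46.5 bases.

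**Figure D1:**
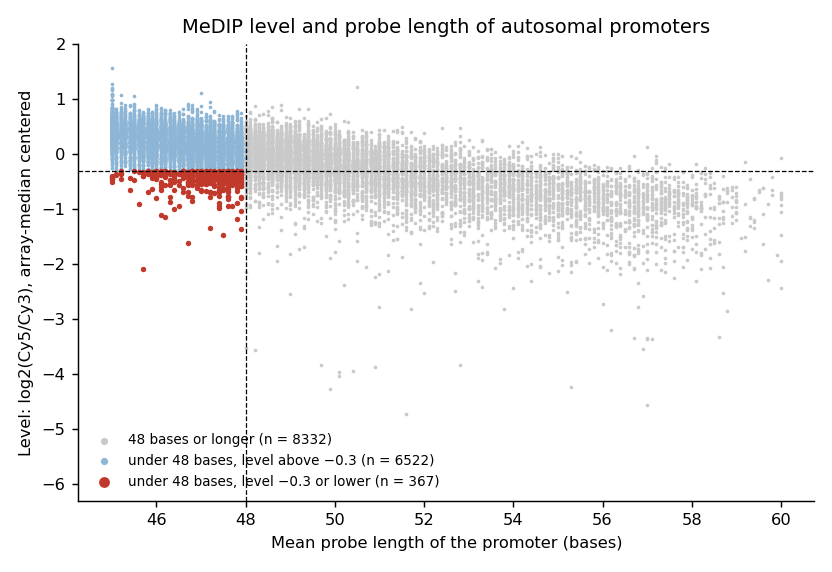
Level of each autosomal promoter, as log2(Cy5/Cy3) minus the array median averaged over 12 arrays (y axis), against its mean probe length in bases (x axis). Each point is a promoter, dashed lines mark the limits of 48 bases and −0.3, and the 367 low promoters (red) lie below a denser band of short-probe promoters whose median is 0.23.

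A low level was seldom a property of the whole promoter. The median promoter had 50% of its probes at or below −0.3, its lowest probe lay at −2.18 and its highest at 0.80 (medians over the 367 promoters). The SD between the probes of a promoter had a median of 1.02, and in the other short-probe promoters it was 0.725. A limit on the mean of these same probe values favors promoters with very low probes, so the SDs are descriptions and cannot be compared. A probe above 0 was present in 363 of the 367 promoters and a probe of at least 0.3 in 345, and a single promoter had all of its probes at or below −0.3. The median probe was at or below −0.3 in 204 promoters. When the lowest probe of each was left out, 101 promoters still had a level of −0.3 or lower.

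The longest run of low probes in a promoter was most often 2 or 3 probes. The longest run of adjacent probes at or below −0.3 was 1 probe in 31 promoters, 2 probes in 129, 3 probes in 118, 4 probes in 49, and 5 or more in the rest, with 8 probes in 2 promoters. The level did not follow the place within the promoter in a steady way. The median probe level was −0.36 in the central 200 bp on either side of the middle, −0.34 from 200 bp, −0.24 from 400 bp, −0.35 from 600 bp, and −0.41 from 800 bp outward. These values describe probes that share arrays and promoters.

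The 2 channels were read separately at the low probes. Of the 3309 probes, 292 (8.82%) had a level of −2 or lower, and among other short-probe promoters 1.1% of probes did. The limit on the promoter level by itself favors such probes, so these shares are descriptions. In log2 relative to the array median, these 292 probes had a median Cy3 signal of 1.12 and a median Cy5 signal of −1.56. A class cut on the ratio favors bright Cy3 and dim Cy5 signals. Their mean length was 50 bases. In 40.4% of them the Cy5 signal was not well above background on any array, which makes their level an upper bound. The same class of the other short-probe promoters was alike, with signals of 0.68 in Cy3 and −1.78 in Cy5. Its mean length was 51.4 bases, and 49.8% of its probes were never well above background in Cy5. The 152 probes above 1 had a Cy3 signal of 0.36 and a Cy5 signal of 1.70, with a mean length of 45.5 bases. Each of them was well above background in Cy5 on at least 1 array, and 98% of them were on all 12 arrays.

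**Figure D2:**
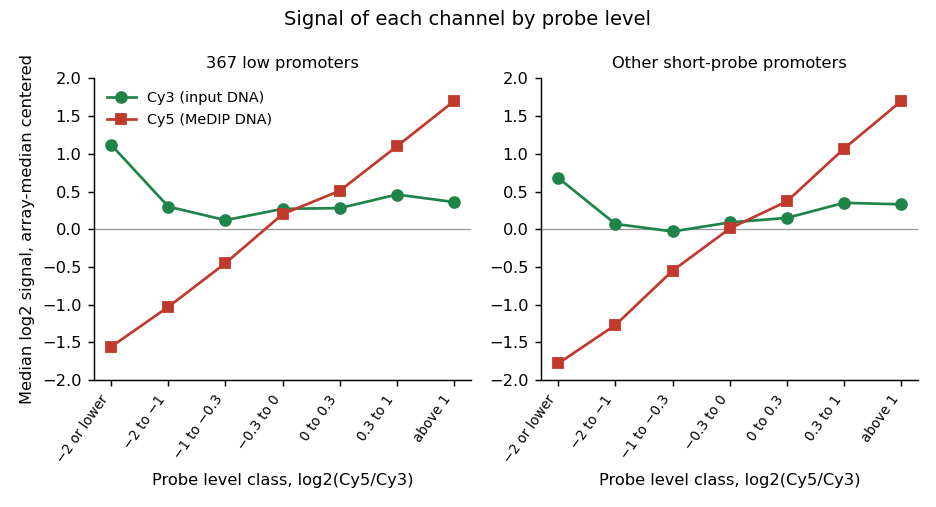
Median log2 signal relative to the array median (y axis) of the Cy3 input channel (green circles) and the Cy5 MeDIP channel (red squares) for probes grouped by level (x axis), in the 367 low promoters (left) and the other 6522 short-probe promoters (right). Cy5 rises from −1.56 to 1.70 across the classes on the left, whereas Cy3 is highest, at 1.12, in the class of −2 or lower.

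The level was also set against the mean signal of each channel across promoters. The Pearson correlation of the level with the mean Cy3 signal was −0.329 over the 367 promoters, and with the mean Cy5 signal it was 0.0334. In the other 6522 short-probe promoters the same correlations were −0.0527 with Cy3 and 0.404 with Cy5. The level is computed from these signals, and a limit on it divided the 367 promoters from the others. The correlations are therefore descriptions, and those of the low and the other promoters cannot be compared. At least 1 probe of every one of the 367 promoters was well above background in Cy5 on all 12 arrays, with a median of 6 such probes. Per array, 72.4% to 79.4% of their probes were well above background in Cy5 and 92.3% to 96% in Cy3, and no probe was saturated.

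The 4 promoters with the lowest levels show this pattern of mixed probes. The lowest was chr13:86911244-86912782, with a level of −2.09 over 9 probes that ranged from −4.33 to 0.31. Its mean Cy3 signal was 2.77 above the array median on the log2 scale and its Cy5 signal was 0.74 above it, so both channels were brighter than the typical probe. The next was chr15:5672589-5674071, with a level of −1.61, probes from −4.18 to 0.37, a Cy3 signal of 3.30 and a Cy5 signal of 1.75. Both channels of these promoters were above the array median, with Cy3 further above it than Cy5. In chr7:113181649-113183402 (level −1.47, 11 probes) the Cy3 signal was 0.88 and the Cy5 signal −0.53. In chr7:18853928-18855647 (level −1.37, 11 probes) they were 1.18 and −0.12. The number of probes well above background in Cy5 on all 12 arrays was 7 of 9, 8 of 9, 6 of 11, and 9 of 11 in these 4 promoters.

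**Figure D3:**
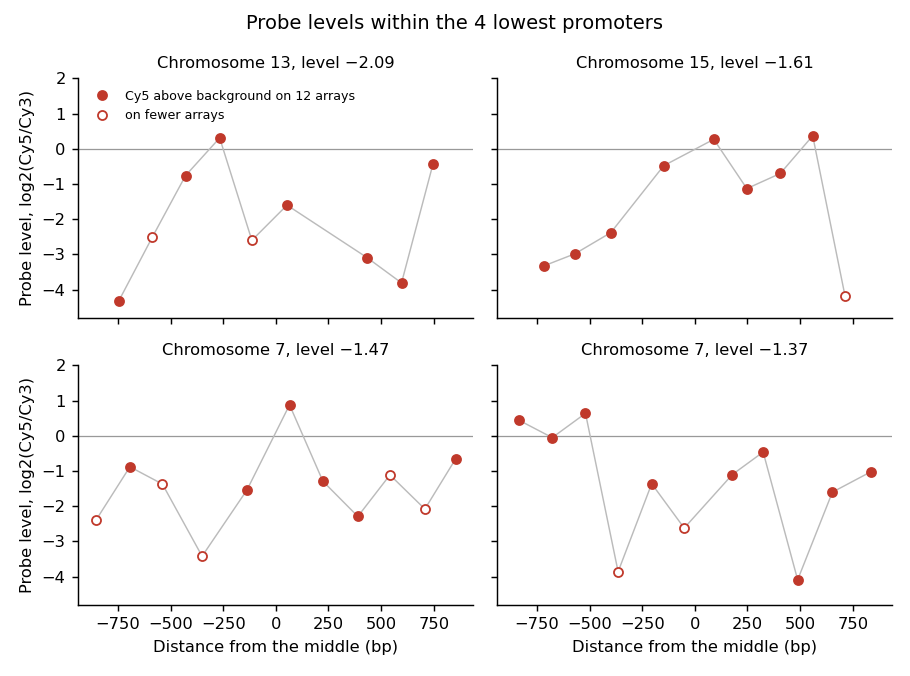
Level of each probe, as log2(Cy5/Cy3) minus the array median averaged over 12 arrays (y axis), against its distance in bp from the middle of the promoter (x axis), in the 4 promoters with the lowest levels. Filled points had a Cy5 signal well above background on all 12 arrays and open points on fewer, and each promoter holds at least 1 probe above 0 beside probes below −3.

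The 367 promoters were found on all 20 autosomes. They made up 8.29% of the short-probe promoters of chromosome 15 (15 of 181), 7.65% on chromosome 4 (27 of 353) and 7.62% on chromosome 14 (16 of 210), and the lowest share was 2.03% on chromosome 19 (5 of 246). Another of the 367 promoters lay within 100 kb of 44 of them (12%). The longest series of these promoters with no other probe cluster of any probe length between them had 4 members, on chromosome 20. These were chr20:4338204-4339988 with a level of −0.32, chr20:4370364-4371988 with −0.36, chr20:4402504-4404086 with −0.66, and chr20:4436058-4437714 with −0.47. Their starts were spaced 32160, 32140, and 33554 bp apart, which is close to regular. A series of 3 lay on chromosome 4, from chr4:165861716-165863369 (level −0.52) through chr4:165927354-165929044 (−0.39) to chr4:165997013-165998765 (−0.51). Whether these neighbors share sequence was not tested.

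The promoters were chosen by their mean over these same 12 arrays, so values below 0 on single arrays largely follow from the choice. On the scale that chose them, 355 of the 367 promoters were below 0 on all 12 arrays, and 111 were at or below −0.3 on all 12. The fewest arrays on which a promoter met the limit was 4, and 38 promoters met it on 6 arrays or fewer. The values deposited by the authors come from the same probes and arrays. They gave a median of −0.42, with 332 promoters at or below −0.3 and all 367 below 0, the highest at −0.19. For the comparisons below, values were corrected for background with normexp and quantile normalized, which moves low ratios toward 0. On that scale the median residual SD between arrays of a group was 0.0817 in the 367 promoters and 0.0755 in the other short-probe promoters.

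The median of the 367 promoters was lowest in the mLP-CN group. After normexp and quantile normalization it was −0.34, −0.33, and −0.29 on the mCN-CN arrays, −0.37, −0.38, and −0.38 on the mLP-CN arrays, −0.32, −0.30, and −0.30 on the mLP-LP arrays, and −0.30, −0.31, and −0.28 on the mLP-HP arrays. The mLP-CN arrays lay below all 9 others, and the other groups overlapped. The group means were −0.32 ± 0.0272, −0.38 ± 0.00231, −0.31 ± 0.0127, and −0.30 ± 0.016, in the same order (SD, n = 3). On the uncorrected scale that chose the promoters the order was another one. There the mCN-CN mean was −0.42 ± 0.0435, the mLP-CN mean −0.44 ± 0.0102, the mLP-LP mean −0.40 ± 0.0797, and the mLP-HP mean −0.52 ± 0.0302, so the mLP-HP arrays, from −0.54 to −0.48, were lower than the mLP-CN arrays and not higher. The direction of the mLP-HP shift turned when the background correction and the quantile normalization were both left out, and with only one of them left out the median difference from mLP-CN stayed above 0, at 0.10 and 0.05.

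**Figure D4:**
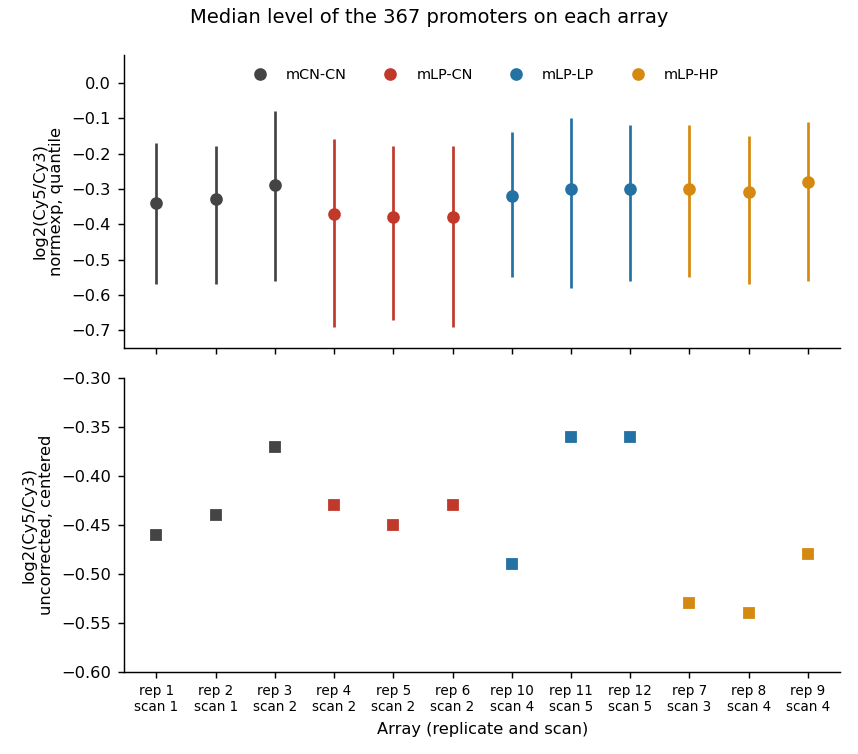
Median log2(Cy5/Cy3) of the 367 promoters on each of the 12 arrays (x axis, with replicate and scan), after normexp and quantile normalization (top, with lines from the 10th to the 90th percentile of the promoters) and on the uncorrected, median-centered scale (bottom, medians only, a narrower y axis). The mLP-CN arrays are lowest in the top panel, at −0.38 to −0.37. In the bottom panel the mLP-HP arrays, at −0.54 to −0.48, are lower than the mLP-CN arrays, and mLP-LP replicate 10 is at −0.49.

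The signals of the channels differed between groups as well. The median Cy5 intensity of the probes of the 367 promoters was 154.5, 140, and 129.5 on the mCN-CN arrays and 99, 103, and 96 on the mLP-CN arrays, and it was 120 to 147 on the 6 arrays of the changed postnatal diets. All 3 mLP-CN arrays were dimmer in Cy5 than every other array, in these promoters and over all probes (94 to 103 against 119.5 to 153). In Cy3, mLP-LP replicates 11 and 12 were the dimmest, at 145 and 123, and the other arrays lay between 161 and 223. The part of these differences in the group comparisons was not tested.

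The first comparison, mLP-CN vs. mCN-CN, addresses maternal protein restriction under the same postnatal diet. Of the 367 promoters 272 had a lower and 95 a higher mean in mLP-CN, with a median difference of −0.06, against −0.02 over all 16055 promoters. A fall passed the test (limma, Benjamini-Hochberg adjusted p under 0.05) in 17 promoters, or 4.63%, where 2.24% of all promoters tested passed in that direction. A rise passed in 0 promoters, against 1.14% of all promoters, and at an unadjusted p under 0.05 in 6, against 8.33%. Without overlap between the 6 arrays, 86 promoters were lower and 10 were higher, where 16.6% and 9.17% of all promoters tested were. The other short-probe promoters had the same median difference of −0.06 and fell in 3.91% (255 of 6522). The share of calls in the 367 was thus close to that of short-probe promoters whatever their level. The excess over all promoters depended on the scaling. With median centering in place of quantile normalization the median difference was −0.07 against −0.09 over all promoters, and a fall passed in 24 promoters (6.54%) against 17.4% of all. On the uncorrected, median-centered scale the medians were −0.04 and −0.05 and 1 fall passed (0.272%, against 1.35%), and after loess within arrays both medians were −0.01 and 0 falls passed, also over all promoters.

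The largest called fall was at chr1:86098931-86100597, a promoter of 8 probes with a mean length of 45.1 bases and a level of −0.385. Its mean log2 ratio was −0.34, −0.27, and −0.26 on the mCN-CN arrays and −0.80, −0.73, and −0.69 on the mLP-CN arrays. The groups were well apart, and 7 of the 8 probes were lower. The difference was −0.45 (SE 0.0632, limma adjusted p = 0.00482). Within scan 2, where mCN-CN replicate 3 is the only array of its group, it was −0.48. The mLP-LP arrays of this promoter were at −0.28, −0.44, and −0.41 and the mLP-HP arrays at −0.36, −0.33, and −0.15, above all mLP-CN arrays and within or near the mCN-CN values. All of its probes were well above background in Cy5 on the 12 arrays, and its Cy3 signal was bright, at 2.04 above the array median on the log2 scale.

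The second was chr10:77377456-77378004, a short promoter of 3 probes, each 45 bases long. It was at −0.26, −0.17, and −0.26 in mCN-CN and at −0.64, −0.50, and −0.60 in mLP-CN, again without overlap and with all 3 probes lower. The difference was −0.35 (SE 0.0644, limma adjusted p = 0.0116), and it was −0.32 within scan 2, again against mCN-CN replicate 3 alone. This call was less stable than the first. It passed in 17 of 25 settings of processing, with an adjusted p from 5.59e-05 to 0.996, where the first passed in 22 of 25, with an adjusted p from 2.56e-05 to 0.996.

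Scan 2 held mCN-CN replicate 3 and all mLP-CN arrays, and with the scan as a fixed block the median difference of the 367 promoters was −0.09, against −0.05 over all promoters. In that fit 57 of them (15.5%) passed as lower and 3 (0.817%) as higher, against 10.2% and 1.41% of all promoters. Of these calls 13 were made in both fits, as were 303 over all promoters. The single mCN-CN array of that scan carried the largest number of spots with an outlier flag among the probes of the 367 promoters, 299, where the other arrays had 1 to 143. Without mCN-CN replicate 3, 41 promoters passed as lower and 9 as higher, where 978 and 975 of all 16055 did, and without mCN-CN replicate 1 or 2 the number lower was 2, where 42 and 48 of all did. The count of 17 thus rested on which arrays were used.

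The second comparison, mLP-LP vs. mLP-CN, sets a low-protein against a control postnatal diet in offspring of restricted dams. Here 254 of the 367 promoters were higher and 113 lower in mLP-LP, with a median difference of 0.07, against 0.02 over all promoters. A rise passed in 64 promoters (17.4%), where 11.8% of all promoters tested rose, and a fall passed in 4 (1.09%), where 7.92% of all promoters fell. The arrays did not overlap in 104 promoters that were higher and 18 that were lower, against 20.7% and 15.1% of all promoters. Among the other short-probe promoters 20.8% rose and 1.7% fell, and their median difference was 0.08. At an unadjusted p under 0.05, 102 were higher and 13 lower, against 20.1% and 14.4% of all promoters. Fitting the scan as a random effect left 4 rises (1.09%) and 0 falls, where 0.28% and 0.0685% of all promoters passed. With median centering in place of quantile normalization the median difference was 0.12 both in the 367 promoters and over all promoters, so relative to all promoters no shift was left, and 28.1% of the 367 rose against 36.1% of all.

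The largest rise was at chr9:104276607-104278076, with 5 probes and a level of −0.813. It lay at −1.16, −1.21, and −1.28 on the mLP-CN arrays and at −0.43, −0.54, and −0.69 on the mLP-LP arrays, and all 5 probes were higher in mLP-LP. The difference was 0.67 (SE 0.0895, limma adjusted p = 0.000442, and 0.0286 under a random scan effect). In mCN-CN the values were −0.79, −0.85, and −1.24. Replicate 3, the array scanned together with mLP-CN, was near the mLP-CN values and the other 2 arrays were not, and the difference of mLP-CN from mCN-CN within scan 2 was 0.02.

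The next was chr3:137150005-137150778, with 4 probes, at −0.47, −0.45, and −0.57 in mLP-CN and 0.05, −0.06, and −0.05 in mLP-LP. The groups did not overlap, and 3 of 4 probes were higher. The difference was 0.48 (SE 0.069, limma adjusted p = 0.000676, and 0.0471 under a random scan effect). Here too mCN-CN replicate 3, at −0.55, lay with the mLP-CN arrays that shared its scan, whereas the remaining mCN-CN arrays gave −0.27 and −0.26. In both promoters the call passed in 22 of 24 settings, and the adjusted p reached 0.179 and 0.227 in those where it did not pass.

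The falls were smaller. At chr15:26851810-26853507, with 9 probes and a level of −0.413, the mLP-CN arrays were at 0.17, 0.01, and 0.10 and the mLP-LP arrays at −0.40, −0.11, and −0.06. The groups did not overlap but replicate 10 stood apart from replicates 11 and 12, which were scanned on another day. The difference was −0.28 (SE 0.0756, limma adjusted p = 0.0156, and 0.149 under a random scan effect). At chr12:22655739-22657069, with 5 probes, the values were −0.03, −0.25, and −0.07 in mLP-CN and −0.42, −0.42, and −0.34 in mLP-LP, a difference of −0.28 (SE 0.0745, limma adjusted p = 0.0158, and 0.347 under a random scan effect). The calls passed in 12 and 13 of 24 settings.

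The third comparison, mLP-HP vs. mLP-CN, sets a high-protein against a control postnatal diet and uses the same mLP-CN arrays as the second. It gave the largest number of calls. In mLP-HP 248 of the 367 promoters were higher and 119 lower, with a median difference of 0.07 against 0.01 over all promoters. A rise passed in 119 promoters (32.4%), where 21.3% of all promoters tested rose, and a fall in 22 (5.99%), where 17% of all promoters fell. The arrays did not overlap in 155 promoters that were higher and 44 that were lower, against 30.7% and 25.8% of all promoters. Among the other short-probe promoters 35.7% rose and 5.67% fell, with a median difference of 0.10. The split turned with the scaling. On the uncorrected, median-centered scale 36 of the 367 promoters (9.81%) passed as higher and 69 (18.8%) as lower, against 25.3% and 20.5% of all promoters, with a median difference of −0.06 against 0.02. After loess within arrays 19 (5.18%) were higher and 7 (1.91%) lower, against 3.11% and 2.05% of all, and both medians were 0.00. With median centering in place of quantile normalization 88 (24%) were higher and 34 (9.26%) lower, against 43.8% and 16.5% of all, with a median of 0.05 against 0.11. The share of rises among the 367 was thus below that of all promoters in the first and last of these settings. When the scan was a random effect, 50 (13.6%) were higher and 1 (0.272%) was lower, against 6.71% and 2.98% of all. At an unadjusted p under 0.05, 141 were higher and 28 lower, against 26.1% and 21.6% of all promoters.

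The largest rise was again at chr9:104276607-104278076, where the mLP-HP arrays were at −0.41, −0.47, and −0.48 and all 5 probes were higher than in mLP-CN. The difference was 0.77 (SE 0.0895, limma adjusted p = 4.02e-05, and 0.00431 under a random scan effect), and it passed in all 24 settings that were run, at values from 0.33 to 1.12. The second was chr1:204900726-204901411, with 5 probes of 45 bases and a bright Cy3 signal of 2.81 above the array median on the log2 scale. It was at −0.86, −0.71, and −0.86 in mLP-CN and at −0.46, −0.05, and −0.02 in mLP-HP. The groups did not overlap, and replicate 7, the sole array of scan 3, stood apart from replicates 8 and 9. The difference was 0.63 (SE 0.105, limma adjusted p = 0.000292, and 0.0146 under a random scan effect). After loess within arrays it was 0.05.

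Among the falls, chr15:26851810-26853507 was the largest, with mLP-HP arrays at −0.40, −0.43, and −0.40 and 8 of 9 probes lower. The difference was −0.50 (SE 0.0756, limma adjusted p = 0.000147, and 0.0146 under a random scan effect), and it passed in all 24 settings, at values from −0.78 to −0.29. Replicate 10 of mLP-LP, scanned with mLP-HP replicates 8 and 9, had the same value of −0.40. At chr2:117293403-117294795, with 7 probes, the mLP-CN arrays were at −0.03, −0.13, and −0.29 and the mLP-HP arrays at −0.49, −0.58, and −0.51, with 6 of 7 probes lower. The difference was −0.38 (SE 0.0938, limma adjusted p = 0.00473, and 0.168 under a random scan effect). In this promoter mLP-LP replicate 10 was at −0.51, with the mLP-HP arrays, and replicates 11 and 12 were at −0.13 and −0.03.

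Between the 2 changed postnatal diets, mLP-HP vs. mLP-LP, 208 promoters were higher and 159 lower in mLP-HP, with a median difference of 0.02 against 0.00 over all promoters. No promoter passed in limma, neither of the 367 nor of all promoters (0%). At an unadjusted p under 0.05, 53 of the 367 were higher and 35 lower, where 9.49% and 10.1% of all promoters were. Leaving out mLP-LP replicate 10, which shared a scan with mLP-HP, gave 92 calls among the 367 and 3449 over all promoters. With the scan as a fixed block there were 0 calls, and 23 of the 367 (6.27%) had an unadjusted p under 0.05, against 412 (2.57%) of all promoters.

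In every comparison the differences went by probe length, within the 367 promoters as in all others. In mLP-CN vs. mCN-CN the median difference of single probes was −0.13 for the 2006 probes of 45 bases, 0.01 for the 711 probes of 46 to 49 bases, and 0.09 for the 592 probes of 50 to 60 bases. Under the postnatal LP diet the same classes differed from mLP-CN by 0.15, −0.03, and −0.13, and under the HP diet by 0.20, −0.10, and −0.21. The sign thus turned between the shortest and the longest probes of the same promoters. Over all promoters tested the same classes had median differences of −0.11, −0.03, and 0.13, then 0.14, 0.01, and −0.19, and then 0.18, −0.04, and −0.28. In mLP-HP vs. mLP-LP the values were smaller, at 0.04, −0.03, and −0.08 in the 367 promoters and 0.03, −0.03, and −0.06 over all promoters. Probes are not replicates, and the part of probe length in the group differences was not tested.

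Low promoters with longer probes moved the other way. Of the 4062 promoters with the same limit on the level and a mean probe length of 48 bases or more, 8.54% rose and 31% fell in mLP-HP vs. mLP-CN, 3.69% rose and 17.4% fell in mLP-LP vs. mLP-CN, and 2.49% rose and 0.64% fell in mLP-CN vs. mCN-CN. The short-probe promoters with a level of 0.3 or higher (2586 promoters) went with the 367 promoters, with 34.6% up and 6.26% down in mLP-HP vs. mLP-CN, 21.1% up and 1.97% down in mLP-LP vs. mLP-CN, and 0.193% up and 4.06% down in mLP-CN vs. mCN-CN. These shares are set side by side, and the difference between the classes was not tested.

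**Figure D5:**
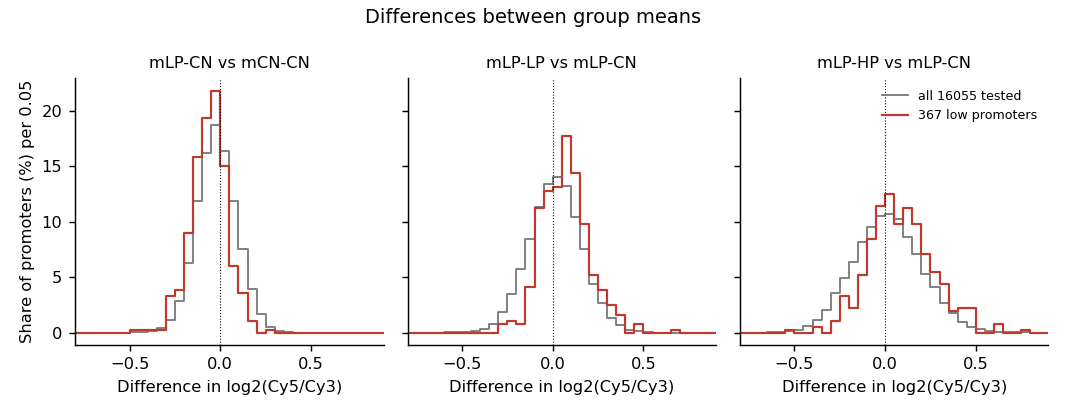
Share of promoters in percent per bin of 0.05 (y axis) by the difference between group means of log2(Cy5/Cy3) (x axis), for the 367 low promoters (red) and all 16055 promoters tested (gray), in 3 comparisons. The red curve lies to the left of the gray one for mLP-CN vs. mCN-CN (medians −0.06 and −0.02) and to the right in the comparisons with mLP-LP (0.07 and 0.02) and mLP-HP (0.07 and 0.01), whereas with median centering only the medians were −0.07 and −0.09, 0.12 and 0.12, and 0.05 and 0.11.

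The differences of adjacent probes, taken without subtracting the mean of the promoter, had a Pearson correlation of −0.00607 in the maternal comparison (2942 pairs), 0.03 in the comparison of mLP-LP (2918 pairs), and 0.0317 in that of mLP-HP (2939 pairs) with mLP-CN. In the other short-probe promoters the values were 0.0126, 0.0138, and 0.0214. The pairs share arrays and promoters, and the promoters named above, chosen for large differences, had most of their probes on the same side.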

How the data were processed

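MeDIP-chip was run on kidney DNA on 12 arrays, and the labels of the samples gave the groups and replicate numbers. The promoters and the comparisons described here were chosen with earlier results of these data known. Per the Methods, immunoprecipitated DNA was amplified over the whole genome and labeled with Cy5, and input DNA with Cy3. Agilent Feature Extraction 11.0.1.1 made the array files that the authors deposited, whose median signal intensities of spots and local background are uncorrected, whose processed intensities are corrected and scaled between the dyes, and whose other columns flag outlier, saturated, and dim spots. A table of log2 values that the authors deposited served as an alternative. The files do not state its scale, and the Methods name median centering, quantile normalization, and smoothing. Probe positions are on build rn4, counted from 1.

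The level used the uncorrected signals. For the comparisons, background was corrected with normexp (offset 50, all spots) in limma 3.58.1 (R 4.3.3), the 6856 control spots were removed, outlier-flagged spots (from 170 to 16509 on an array) were set to missing, and log2 ratios of 172669 probes were median centered and quantile normalized. Means over probes were taken on deviations from each probe's mean. Limma was fitted to promoter means of all 12 arrays in 4 groups (8 residual degrees of freedom), with Benjamini-Hochberg adjustment over 16055 promoters and a threshold of 0.05, and was tested on simulated data. The scan entered as a random block (consensus correlation 0.533) or as a fixed block in the comparisons whose groups shared a scan. With 3 arrays per group, their number limits the precision.

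Named promoters are the 4 with the lowest levels, the 2 on each side of the limit, and in each comparison the 2 largest rises and 2 largest falls among promoters with an adjusted p under 0.05, no overlap between the groups, and at least 1 probe well above background in Cy5 on all arrays. Alternatives changed the background correction, normalization, filters, promoter summary, array weights, limits of the choice, and arrays used. Genes, GC content, and probe sequences were not analysed here.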

Additional observations from a re-analysis of the deposited data

How the results depend on the processing

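The level of the 367 promoters, chosen to be low on these same arrays, stayed below 0 under all settings tried. On the normalized scale its median of −0.32 went from −0.62 with processed signals to −0.15 without the lowest probe of each promoter, a setting chosen after seeing the data, as was the scale of the rule (no background correction and median centering only). No paired analysis was possible because the groups share no replicate numbers. Numbers in parentheses below are the calls over all promoters in the same setting (16055, or 16003 and 16002 with the filter on dim probes). In mLP-CN vs. mCN-CN the 17 falls (359) became 0 with processed signals (0), with loess within arrays (0), and with a filter on dim probes (1), 1 on the scale of the rule (216), 10 with the median over probes (212), 73 with array weights (2311), 31 with the scan as a random block (856), and 57 with it as a fixed block (1631). The 0 rises (183) became 1 with the median over probes (167), 16 with array weights (2063), and 3 with the scan as a fixed block (226). In mLP-LP vs. mLP-CN the 64 rises (1897) became 5 without background correction (103), 0 with processed signals (26), 103 with median centering only (5793), 1 with loess (1), 6 with the authors' table (97), 5 with the filter on dim probes (142), 2 on the scale of the rule (37), 38 with the median over probes (998), 112 with array weights (3095), and 4 with the random block (45). The 4 falls (1272) became 7 with the median over probes (1007), 13 with array weights (2497), and 0 without background correction (21), with processed signals (3), median centering only (320), loess (0), the authors' table (47), the filter on dim probes (79), the scale of the rule (0), and the random block (11). In mLP-HP vs. mLP-CN the 119 rises (3412) became 74 with processed signals (1885), 19 with loess (500), 63 with the filter on dim probes (2091), 36 on the scale of the rule (4065), 78 with the median over probes (2257), and 50 with the random block (1077). The 22 falls (2735) became 10 without background correction (1565), 14 with processed signals (1311), 34 with median centering only (2642), 7 with loess (329), 69 on the scale of the rule (3289), 39 with array weights (3845), and 1 with the random block (479). In mLP-HP vs. mLP-LP the 0 calls (0) became 1 without background correction (3), 45 with median centering only (2651), 53 on the scale of the rule (2748), 1 with the median over probes (1), and 143 with array weights (5829). A level limit of −0.5 left 120 promoters, with 4 falls in the maternal comparison, 17 rises and 0 falls for mLP-LP, and 36 rises and 9 falls for mLP-HP. A probe length limit of 47 left 151, with 10 falls, then 44 rises and 1 fall, then 57 rises and 6 falls. These limits change only which promoters are counted, so the counts come from fewer promoters and the calls over all promoters stay as in the main fit. Of all promoters 2.24% fell in the maternal comparison. For mLP-LP 11.8% rose and 7.92% fell, and for mLP-HP 21.3% rose and 17% fell. For the other settings the cause was not tested.

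The counts thus moved over all promoters as well as among the 367. The share of rises among the 367 was above that of all promoters in 22 of 24 settings for mLP-LP, all but processed signals and median centering only, and in 22 of 24 for mLP-HP, all but median centering only and the scale of the rule. Many of these settings repeat the main fit with 1 array left out and are not independent, and for mLP-LP loess counted as above on 1 call. In the main fit the other short-probe promoters rose more often than the 367. Their shares were 20.8% against 17.4% for mLP-LP and 35.7% against 32.4% for mLP-HP. The share of falls in mLP-CN vs. mCN-CN was above that of all promoters in 19 of 25 settings, below it in 4 (median centering only, the filter on dim probes, the scale of the rule, and without mLP-CN replicate 4), and equal at 0 in 2. The median difference of mLP-HP vs. mLP-CN turned to −0.06 on the scale of the rule.

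Leaving out arrays in turn gave 1 to 41 falls and 0 to 9 rises in mLP-CN vs. mCN-CN, 35 to 78 rises and 1 to 11 falls in mLP-LP vs. mLP-CN, 79 to 134 rises and 9 to 26 falls in mLP-HP vs. mLP-CN, and 0 to 92 calls in mLP-HP vs. mLP-LP. The falls in mLP-CN vs. mCN-CN numbered 2 without mCN-CN replicate 1 (42) or 2 (48), 41 without mCN-CN replicate 3 (978), 1 without mLP-CN replicate 4 (46) or 6 (22), 9 without mLP-CN replicate 5 (213) or mLP-HP replicate 9 (198), 8 without mLP-HP replicate 8 (206), and 29 without mLP-LP replicate 10 (807), and the rises 9 without mCN-CN replicate 3 (975) and 1 without mLP-LP replicate 10 (444). In mLP-LP vs. mLP-CN the rises numbered 42 (954), 40 (999), and 35 (1134) without mLP-CN replicate 4, mLP-CN replicate 6, and mLP-LP replicate 12, and the falls 1 (521), 2 (631), and 2 (554), with 11 falls (1752) without mCN-CN replicate 3. In mLP-HP vs. mLP-CN there were 79 rises (2468) and 10 falls (1845) without mLP-CN replicate 4, 9 falls (1949) without mLP-HP replicate 8, and 14 (1916) without mLP-HP replicate 9. In mLP-HP vs. mLP-LP there were 2 calls (3) without mCN-CN replicate 3 and 92 (3449) without mLP-LP replicate 10. The promoters named for a rise or fall in a comparison kept the sign of that difference in every setting run for it. Their differences in the other comparisons were not followed through these settings.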
